A study of Mus musculus with 11 samples.

Results

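Small nucleolar RNAs (snoRNAs) are short non-coding RNAs that guide the chemical modification and the cutting of ribosomal RNA. The 4 described here, Snord14e, Snord118, Snord15a and Snord38a, were chosen by their array signal, selected on its differences between Zbtb46 genotypes in erythroid progenitors or in dendritic cells (DC). They are 4 of 19933 genes with a probe set of 1 gene symbol and 4 of 54 snoRNA genes measured in this way, which had 60 probe sets together. The 4 genes had 5 probe sets. Snord118 had 2 of them, and these held the same value on every array, so they were counted as 1 measurement. Of the 60, 6 shared all values with another probe set, namely those of Snord118, Scarna17 and Snora30. Scarna17 and Snora30 are counted by probe set below.

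RNA was profiled on 11 Affymetrix arrays, 1 per genotype and cell type, in C57Bl/6 mice at steady state. WT mice were Zbtb46+/+, Het mice Zbtb46 gfp/+ and KO mice Zbtb46gfp/gfp, where gfp marks an inserted reporter allele of the zinc finger factor gene Zbtb46. Erythroid progenitors at 3 successive stages (Pre MegE, then Pre CFU-E, then CFU-E) were sorted from bone marrow of all 3 genotypes by CD117, CD150 and CD105, and splenic CD4+ DC were sorted from WT and KO animals. Sex, age, the number of animals per array and any sharing of animals between stages are not in the labels, so the spread between arrays may leave out differences between mice.

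All 4 genes are named as box C/D snoRNAs, the class that carries the C and D boxes and guides ribose methylation by the methyltransferase fibrillarin (Fbl) within a particle with Nop56, Nop58 and Snu13. Most mammalian snoRNAs of this kind are cut from the introns of host genes, many of which encode ribosomal proteins or other parts of the translation machinery. Snord14e belongs to the U14 group, which takes part in maturation of the small-subunit ribosomal RNA, and lies within Hspa8, the gene of a constitutive heat shock chaperone. Snord15a (U15) and Snord38a (U38) guide methylation of the large-subunit RNA, and Snord15a lies within Rps3, the gene of a ribosomal protein. Snord118 (U8) is needed for maturation of the large-subunit RNAs. It is transcribed from its own promoter and capped, and lies beside Tmem107 rather than within it. In the RefSeq gene table (GRCm38.p6, used here only for names, lengths and neighbours) Snord38a is 59 bases long, Snord14e 91, Snord118 137 and Snord15a 148. Whether a probe set read the mature snoRNA or other RNA from the same place, such as a host intron, was not tested.

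Itgax and Gata1 separated the DC arrays from the progenitor arrays, while other markers were shared in part. Itgax, the gene of CD11c, was at 12.27 and 12.36 log2 intensity in WT and KO DC and at 5.88 to 6.35 in progenitors, and the erythroid factor Gata1 at 11.68 to 12.11 in progenitors and at or below 7.34 in DC. The granule genes Mpo and Elane of myeloid precursors were also high in progenitors (11.13 to 12.61 and 10.83 to 12.39), and Kit, the gene of CD117, was at 12.07 and 12.22 in DC. In progenitors the megakaryocyte genes Itga2b, Gp9 and Pf4 ran from 7.87 to 10.94, 8.72 to 10.65 and 7.18 to 9.90. Slamf1, the gene of CD150, ran from 6.47 to 11.51 there. Eng, the gene of CD105, stayed at 11.69 to 11.84 over the progenitor arrays, so its RNA differed little between the stages. The erythroid marker Tfrc was at 10.41 to 12.33 in progenitors and at 9.65 and 9.95 in WT and KO DC. The DC markers Sirpa and Itgam were above the array medians on all 9 progenitor arrays, though lower there than in DC. The part of all these in the results was not tested. Zbtb46 was 9.67 in WT and 8.02 in KO DC, and KO minus WT was -1.37 at CFU-E, -0.44 at Pre CFU-E and 0.19 at Pre MegE. At Pre MegE its 3 arrays (7.52 in WT, 7.67 in Het, 7.71 in KO) were below their medians, so Zbtb46 did not bear out the genotype labels there. Among Pre CFU-E arrays Zbtb46 was again higher in Het than WT (8.30 against 8.14, a difference of 0.16). Het was below WT only among CFU-E arrays (-0.25), so Zbtb46 did not bear out the Het label before that stage. Array medians lay between 7.61 and 7.77. Sex-linked genes separated the arrays by genotype and by cell class. Xist, expressed from the inactive X chromosome of female cells, was at 11.52 to 12.31 in WT progenitors, 5.86 to 6.38 in Het and KO progenitors and 13.21 and 13.28 in DC. The Y-linked genes Kdm5d, Eif2s3y and Uty were at 8.37 to 10.57 in WT progenitors, 8.76 to 10.81 in Het and KO progenitors and 3.78 to 5.62 in DC. WT progenitor arrays thus had high signal for both kinds of gene, Het and KO progenitor arrays for the Y-linked genes and DC arrays for Xist. In the comparison of WT with the other progenitors, and of DC with progenitors, this difference and the group cannot be told apart. KO minus Het in progenitors and KO minus WT in DC do not carry it.

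Snord14e had the largest KO excess of all 60 snoRNA probe sets in DC and a smaller one at each progenitor stage. The WT DC array had a log2 intensity of 10.41 and the KO DC array 11.75, so KO exceeded WT by 1.34 or 2.53-fold. At Pre MegE it was 11.17 in WT, 11.38 in Het and 11.52 in KO. At Pre CFU-E the values were 11.42, 11.58 and 11.71, and at CFU-E 11.61, 11.72 and 11.92 in the same order. The order WT, Het, KO thus held at every stage, and WT DC was the lowest of the 11 arrays while KO DC lay within the KO progenitor range. KO exceeded WT by 0.32 ± 0.030 on the log2 scale (SD over 3 stages, 1.24-fold), Het exceeded WT by 0.16 ± 0.048, and KO exceeded Het by 0.16 ± 0.042, each higher in 3 of 3 stages. These genotype differences chose the gene and are given as a description, with no test. Among 11638 probe sets at or above the array median in WT or KO DC, 0.309% differed by at least 2-fold, 0.112% being higher in KO and 0.198% lower. In progenitors 0.178% of 11811 probe sets had a KO minus WT mean of at least 0.25 with the same sign in 3 stages. Snord14e and Snord15a were among them, as were other snoRNAs, namely Snord49b (0.34), Snora16a (0.30), Snord15b (0.30) and Snora73a (0.29).

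**Figure D1:**
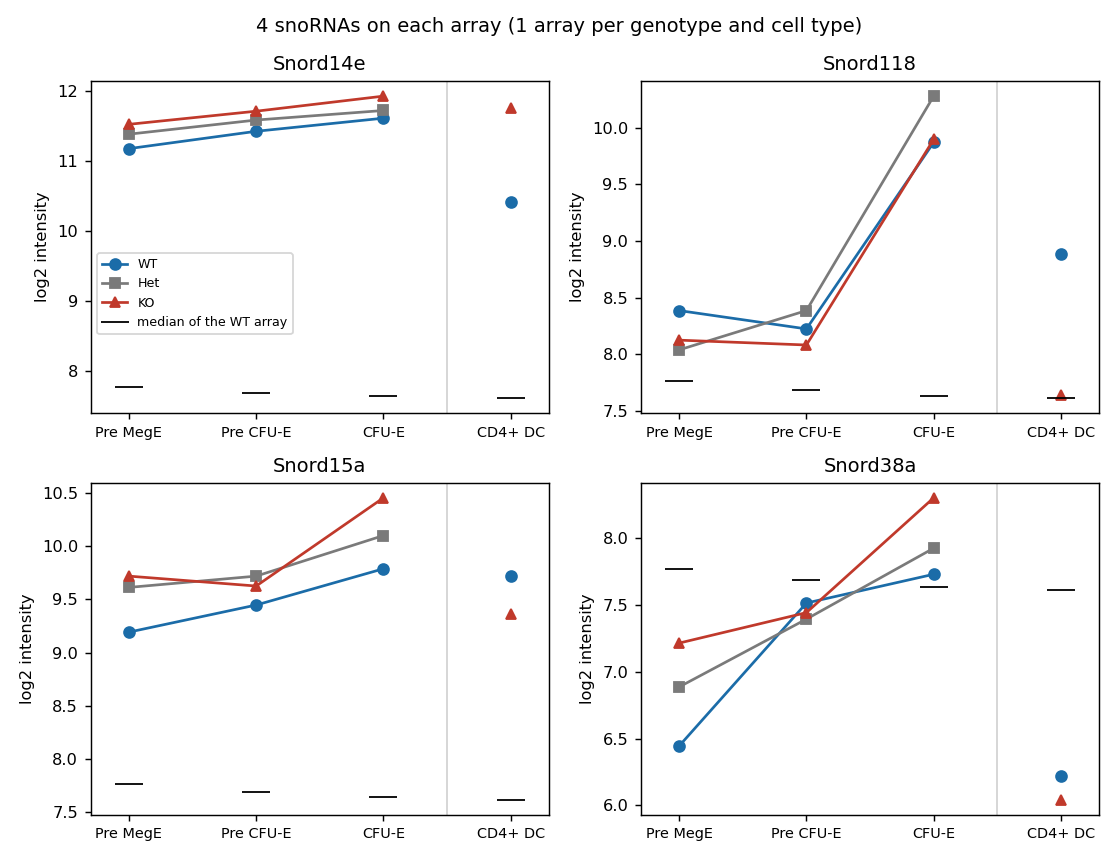
Log2 intensity (y axes) of the 4 snoRNAs in the 3 progenitor stages and in CD4+ DC (x axes); each point is 1 array, coloured by genotype, lines join the stages of a genotype, and black dashes mark the median of all probe sets on the WT array. Snord14e runs in the order WT, Het, KO at each stage and is 1.34 higher in KO than WT DC, Snord118 steps up at CFU-E in all genotypes, and Snord38a lies below the dashes in DC.

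Snord118 differed the opposite way in DC, with the lowest KO minus WT value of the 60 snoRNA probe sets. The WT DC array read 8.89 and the KO DC array 7.64 (log2 intensity), so KO was 2.37-fold lower. KO DC lay at the array median of 7.64. Other snoRNA probe sets read lower on that array, such as Snord52 at 5.95, and any effect of low signal on the fold was not tested. In progenitors it was 8.38, 8.04 and 8.12 in WT, Het and KO at Pre MegE, 8.22, 8.38 and 8.08 at Pre CFU-E, and 9.87, 10.28 and 9.90 at CFU-E. The genotypes had no common order over the stages: WT was highest at Pre MegE and Het at the later stages. KO minus WT averaged -0.13 ± 0.14 (SD, n = 3 stages, lower in 2 of 3), a mean smaller than its spread.

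Snord15a was higher in KO than WT progenitors at every stage and lower in KO than WT DC. At Pre MegE its log2 intensity was 9.19 in WT, 9.61 in Het and 9.72 in KO. At Pre CFU-E it was 9.45, 9.72 and 9.63, and at CFU-E 9.79, 10.10 and 10.46. WT was the lowest genotype at each stage, and Het and KO changed places at Pre CFU-E. KO minus WT was 0.46 ± 0.25 and Het minus WT 0.34 ± 0.077 (SD, n = 3 stages), whereas KO minus Het was 0.12 ± 0.22 and higher in 2 of 3 stages. WT and KO DC had 9.72 and 9.37, a difference of -0.35.

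Snord38a had the dimmest signal against the array medians. It was at or above the median on 3 of 11 arrays, all of them CFU-E. At Pre MegE it was 6.44 in WT, 6.89 in Het and 7.21 in KO. At Pre CFU-E the 3 genotypes were at 7.51, 7.39 and 7.44, and at CFU-E at 7.73, 7.92 and 8.30. KO exceeded WT at the early and the late stage by 0.77 and 0.57 and not at Pre CFU-E (-0.07), so that the mean of 0.42 was smaller than its SD of 0.44. KO minus Het was 0.25 ± 0.18 and positive in 3 of 3 stages. In DC it was 6.22 in WT and 6.04 in KO, both below the array medians.

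Most other snoRNAs lay on the same side of 0 as Snord15a in KO minus WT, above it in progenitors and below it in DC. Of 55 probe sets of other snoRNAs, 42 had a KO minus WT mean above 0 in progenitors (median 0.11, from -0.26 to 0.34). Of all 21780 probe sets with 1 symbol, 11902 were above 0 (median 0.0074). The median of the 55 on each array was 9.82, 9.89 and 9.88 in WT, Het and KO at Pre MegE. It was 10.09, 10.36 and 10.20 at Pre CFU-E, and 10.29, 10.34 and 10.42 at CFU-E. WT was thus lowest at each stage, while KO was above Het only at CFU-E. KO minus Het, which does not carry the sex-linked difference, had no common sign. In DC 43 of the 55 were below 0 (median -0.18, from -0.60 to 0.52), against 10437 of all 21780 (median 0.0088). Snord15a and Snord38a ranked 1 and 2 among the 60 in KO excess over the stages and Snord14e 4, behind Snord49b at 0.34. In DC, Snord118 was at -1.25 where the next lowest gene, Snord42a, was at -0.60, and Snord14e at 1.34 where the next highest, Snord52, was at 0.52. In KO minus WT, the family's median thus had the sign of the Snord15a and Snord38a differences. It had the opposite sign to Snord14e in DC and to Snord118 over the stages, and its part in these differences was not tested. Taken relative to the median of the other snoRNA probe sets on each array, KO minus WT over the stages was 0.21 for Snord14e, 0.36 for Snord15a, 0.32 for Snord38a and -0.23 for Snord118, and in DC 1.52 for Snord14e, -1.07 for Snord118, -0.18 for Snord15a and -0.0011 for Snord38a. Het minus WT for Snord14e over the stages was 0.03 with an SD of 0.13 on that scale. At Pre CFU-E the family's median was 0.27 higher in Het than WT, more than the 0.16 of Snord14e, so its order of WT, Het and KO does not hold there relative to the family.

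**Figure D2:**
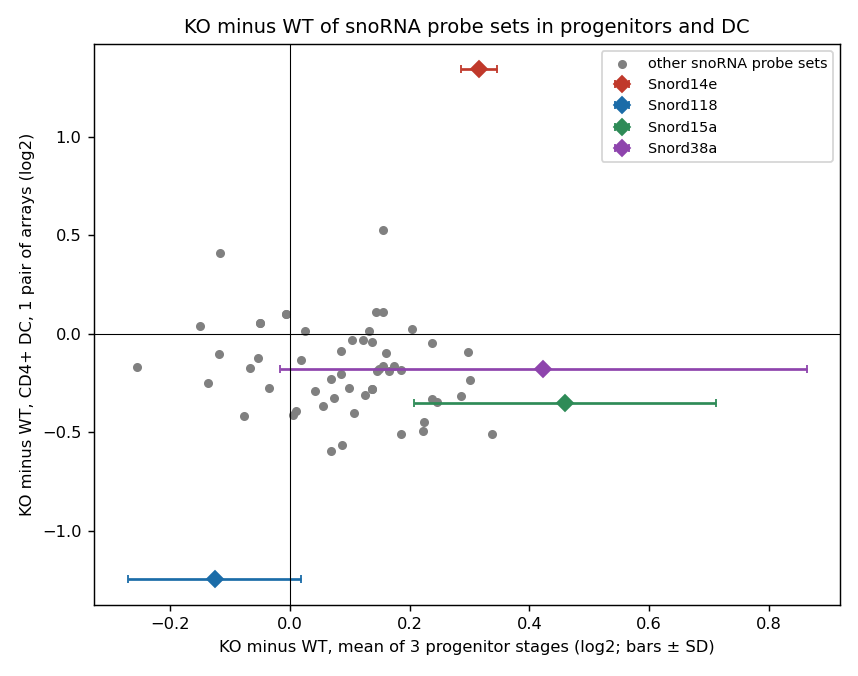
KO minus WT of the snoRNA probe sets, as the mean of 3 progenitor stages (x axis, log2; bars are SD over stages for the 4 named genes) against the single pair of CD4+ DC arrays (y axis, log2). Grey points are the 55 other snoRNA probe sets, which spread from -0.60 to 0.52 in DC, and Snord14e at 1.34 and Snord118 at -1.25 lie outside that range.

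Host and neighbouring genes did not share the members' genotype differences in size. The 3 Hspa8 probe sets differed by 0.12, 0.11 and 0.20 between KO and WT DC, where Snord14e differed by 1.34, and by -0.04, -0.04 and -0.05 on average over the progenitor stages. Rps3 differed by -0.0083 in DC and by 0.06 ± 0.10 over the stages (SD, n = 3). Snord15b, a snoRNA of the same host as Snord15a, was higher in KO progenitors in 3 of 3 stages (0.30 ± 0.11) and had -0.09 in DC. Tmem107, beside Snord118, differed by 0.03 in DC, where it lay below the array medians. Of 2 markers of B cells, which a splenic sort could also hold, Ms4a1 was 8.57 in WT and 9.55 in KO DC and Cd79a 7.52 and 6.82, the latter below the array medians. Of 2 markers of macrophages, Adgre1 was 12.33 in WT and 12.39 in KO DC and C1qa 9.95 and 9.40. In progenitors Adgre1 was at 5.96 to 6.70 and C1qa at 6.78 to 7.04. The part of B cells or macrophages in the DC values was not tested.

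**Figure D3:**
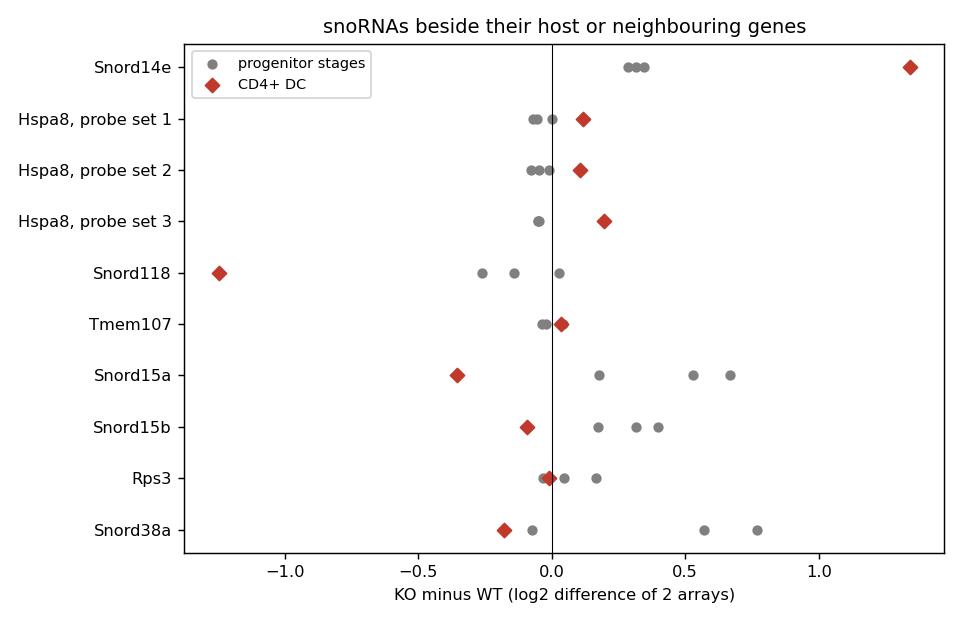
KO minus WT (x axis, log2 difference of 2 arrays) of the 4 snoRNAs and of genes that hold or neighbour Snord14e, Snord118 and Snord15a, with Snord15b (rows); grey points are the 3 progenitor stages and red diamonds CD4+ DC. Snord14e reaches 1.34 in DC while the Hspa8 probe sets stay between 0.11 and 0.20, and Snord118 lies at -1.25 while Tmem107 is at 0.03.

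The erythroid stages were compared next, which the choice of genes did not use. Each stage had 3 arrays, 1 per genotype, and was tested within genotypes with limma over 11811 probe sets, with Benjamini-Hochberg adjustment and a call at an adjusted p under 0.05. From Pre MegE to Pre CFU-E 2 of the 4 genes rose, where 65.1% of all probe sets tested were called, 36.4% higher and 28.7% lower. Snord14e rose by 0.21 (SE 0.0454, 1.16-fold, adjusted p = 0.00268, higher in 3 of 3 genotypes), a call lost after quantile normalization (0.12, adjusted p = 0.0575). Snord38a rose by 0.60 (SE 0.131, adjusted p = 0.00301, higher in 3 of 3 genotypes), from 1.07 in WT to 0.23 in KO, with every value below the array medians at both stages. It entered the test through its CFU-E arrays. Snord118 (0.05, adjusted p = 0.742) and Snord15a (0.09, adjusted p = 0.405) were not called. Without the KO Pre CFU-E array Snord15a was called at 0.21 (adjusted p = 0.0296). Snord118 differed by 0.35 in Het and by -0.16 and -0.04 in WT and KO.

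From Pre CFU-E to CFU-E all 4 genes rose, where 42.5% of probe sets were called, 18.2% higher and 24.3% lower, and Snord118 had the largest rise of the snoRNA probe sets tested. Its mean went from 8.23 ± 0.15 to 10.02 ± 0.23 (SD, n = 3 arrays each), a difference of 1.79 (SE 0.117, 3.45-fold, adjusted p = 4.15e-06). The 3 CFU-E arrays lay above all 6 arrays of the earlier stages, and the difference was 1.65 in WT, 1.89 in Het and 1.82 in KO. Snord15a rose by 0.52 (SE 0.0888, adjusted p = 0.00149), by 0.34 in WT, 0.38 in Het and 0.83 in KO. Snord38a rose by 0.53 (SE 0.131, adjusted p = 0.0102). It passed the filter on low signal only through its CFU-E arrays and so had to be higher there, and its count supports nothing. Snord14e rose by 0.18 (SE 0.0454, 1.13-fold, adjusted p = 0.0117), and this call was lost without the WT Pre CFU-E array (0.19, adjusted p = 0.0501) or the WT CFU-E array (0.17, adjusted p = 0.0609).

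Across both steps, CFU-E against Pre MegE, each gene rose in 3 of 3 genotypes, where 75.7% of probe sets were called, 41.2% higher and 34.5% lower. Snord118 rose by 1.83 (SE 0.117, 3.57-fold, adjusted p = 6.81e-07), Snord38a by 1.14 (SE 0.131, adjusted p = 3.84e-05, a difference that its entry through the CFU-E arrays required), Snord15a by 0.61 (SE 0.0888, adjusted p = 0.000188) and Snord14e by 0.39 (SE 0.0454, adjusted p = 3.92e-05). In the Het and KO arrays alone, which shared their sex-linked pattern, the rises were 2.01, 1.06, 0.61 and 0.37, all called. Hspa8 was not called at any step (0.04 to 0.09 over the span in its 3 probe sets), and neither was Rps3 (0.07, adjusted p = 0.318), except that after centring arrays on their medians all 5 probe sets of Hspa8, Rps3 and Tmem107 were called higher over the span and 3 of the 5 at the early step. Tmem107 rose by 0.85 (adjusted p = 3.89e-05) and then by 0.45 (adjusted p = 0.0035), so it rose at the step where Snord118 was not called as well as at the later step.

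**Figure D4:**
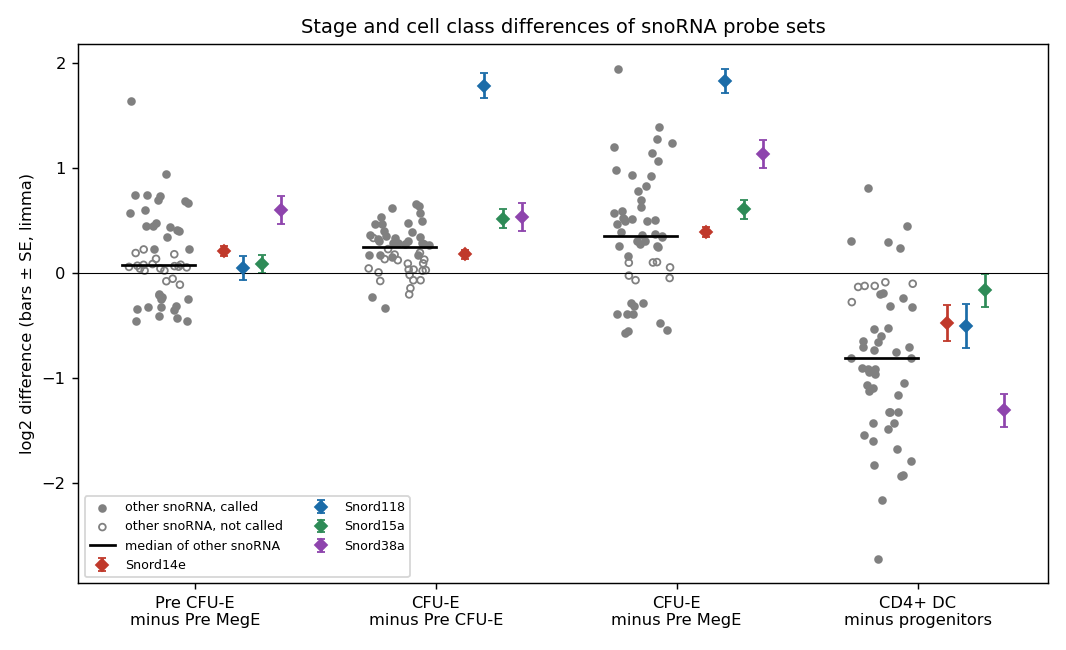
Log2 differences (y axis) between stages and between CD4+ DC and progenitors (x axis); grey circles are other snoRNA probe sets, filled where called by limma, black lines their medians, and coloured diamonds the 4 named genes with bars of ± SE. Snord118 stands at 1.79 from Pre CFU-E to CFU-E, above the highest other snoRNA at 0.66, while Snord14e lies near the black lines at the steps between stages.

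The wider family was called at the early step in shares near those of all probe sets, and mostly rose at the later step. Of 52 other snoRNA probe sets tested, 19 rose and 14 fell from Pre MegE to Pre CFU-E (median 0.08, against 0.04 over all probe sets tested), where 36.4% of all were called higher and 28.7% lower. Scarna17 and Snora30 each count more than once among the 14, as their probe sets held the same values. From Pre CFU-E to CFU-E 29 rose and 2 fell (median 0.25, against -0.0013), where 18.2% of all were called higher and 24.3% lower. After centring the arrays on their medians the counts were 26 and 9 at the early step and 33 and 2 at the later one, and the median of all probe sets at the early step moved to 0.12. Over the span 35 rose and 10 fell, where 41.2% of all were called higher and 34.5% lower. At the early step the largest rises were in Snord52 (1.64) and Snord42a (0.95), and the largest falls in Scarna17 (-0.46), a guide of the Cajal body type, and Snora31 (-0.42), of the box H/ACA class that guides pseudouridylation. At the later step Snord118 was followed by Snord33 (0.66), while Snora23 (-0.34) and Snord37 (-0.23) fell. Over the span Snord52 rose by 1.95, and Snora23 (-0.57) and Snord85 (-0.55) fell. Relative to the median of the other snoRNA probe sets on each array, Snord118 rose at the later step by 1.65 (adjusted p = 5.59e-09) and Snord15a by 0.38 (adjusted p = 0.00304), while Snord14e was not called (0.05, adjusted p = 0.664) and over the span turned to -0.10 (adjusted p = 0.26). Snord15a lost its call over the span (0.12, adjusted p = 0.23) and Snord38a its call at the early step (0.25, adjusted p = 0.0841). At the early step Snord118 turned to -0.31 (limma adjusted p = 0.0196) and Snord15a to -0.26 (limma adjusted p = 0.0164) on this scale, both called lower.

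Most genes of the snoRNA particles rose at the early step. Between Pre MegE and Pre CFU-E, where 36.4% of all probe sets tested were called higher, all 9 probe sets of the box C/D core rose (median 0.44). Fbl was at 0.45 and 0.39 in its 2 probe sets, Nop56 at 0.37 and Nop58 at 0.34. All 4 probe sets of the box H/ACA core (median 0.55) and all 12 of the assembly factors (median 0.49) rose as well. The counts are of probe sets, several of which share a gene, as for Snu13 (0.44 to 0.47) and, in the next list, Lsm5, Lsm6 and Lsm7. In the list of capping, Lsm and export genes, drawn up for snoRNAs with their own promoter, 16 of 17 rose (median 0.48). Whether their rise concerned such snoRNAs or other RNAs was not tested. In the list of end trimming and decay 11 of 20 rose and 2 fell (median 0.45). Lsm2 (1.01), Rrp9 (0.95), Znhit3 (0.90), Exosc8 (0.86), Lsm7 (0.82), Exosc4 (0.82), Rpap3 (0.82) and Exosc7 (0.78) rose most. The exosome gene Exosc3 disagreed between its probe sets, with 0.72 and -0.19, both called. At the later step, where Snord118 rose, none of the 9 box C/D core probe sets was called by limma (median 0.03), although 3 were after centring and 1 after quantile normalization. In the capping and export list 5 of 17 rose, led by Lsm3 (0.34) and Lsm5 (0.34), where 18.2% of all probe sets tested were called higher. Tgs1, the enzyme that completes the cap of such snoRNAs, had -0.11 (limma adjusted p = 0.114). Exosc9 (0.34), Znhit3 (0.33), Rpap3 (0.32), Exosc7 (0.30), Mtrex (0.26) and Dis3 (0.19) also rose, and Zcchc7 (-0.17) and Nolc1 (-0.14) fell.

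DC and progenitors were compared on the 11 arrays in a fit with a genotype term and 12740 probe sets tested. The WT and KO arrays were the only DC arrays, and since the genes were chosen for differences between such arrays, their mean hides the gap between them. Snord38a was the member called with the same sign in both. It averaged 6.13 in DC and 7.43 ± 0.55 in progenitors (SD, n = 9), lower by -1.31 (SE 0.158, adjusted p = 1.34e-05) and by -1.01 in WT and -1.61 in KO. Both DC values were below the array medians, and here too it passed the filter only through CFU-E. Relative to the other snoRNA probe sets it was not called (-0.15, adjusted p = 0.285), while Snord14e, Snord118 and Snord15a were higher in DC on that scale (0.68, 0.65 and 0.99). Without that adjustment Snord14e was lower in DC on average (-0.48, SE 0.17, adjusted p = 0.0216), but by -0.99 in WT and 0.04 in KO, and after quantile normalization it turned to 0.15 (adjusted p = 0.407). Without the WT DC array it was 0.04 (adjusted p = 0.592). Snord118 had -0.50 (SE 0.21, adjusted p = 0.0431), from 0.06 in WT and -1.06 in KO, and without the KO DC array 0.06 (adjusted p = 0.743). It also lost the call after centring (-0.44, adjusted p = 0.0741) and after quantile normalization (-0.16, adjusted p = 0.594). Snord15a was not called (-0.16, adjusted p = 0.337), with 0.24 in WT and -0.57 in KO, but was higher in DC after quantile normalization (0.53, adjusted p = 0.00774). The 3 members called lower rest on the filter (Snord38a) or on 1 DC array each (Snord14e and Snord118), and nothing is read from their count. Among all probe sets, 90.1% of those tested were called, 65.2% lower and 24.9% higher.

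Most snoRNAs and all snoRNA particle genes tested were lower in DC as well. Of the 52 other snoRNA probe sets 41 were lower and 5 higher (median -0.81, against -0.60 over all probe sets tested). The upper quartile of intensity was 641 and 605 in WT and KO DC and 968 to 1009 in progenitors, so the arrays of the 2 classes differed in their spread of signal, and its part in these differences was not tested. After quantile normalization the median of all probe sets moved to -0.11 and the snoRNA counts to 29 lower and 14 higher. Snord52 (-2.72) and Snora69 (-2.16) fell furthest, and Snora74a (0.81) and Snord15b (0.45) were higher in DC. Among all probe sets tested 65.2% were called lower, and in the particle gene lists several probe sets share a gene. All 9 box C/D core, 4 box H/ACA core, 12 assembly, 17 capping and export and 20 trimming and decay probe sets were lower, except that 4 of the last list were higher after quantile normalization. The largest were Dkc1 (-3.26), the pseudouridine synthase, Dis3 (-3.17), Gar1 (-3.05), Exosc8 (-2.91), Exosc2 (-2.78), Rrp9 (-2.67), Nop10 (-2.65) and Nop58 (-2.58). In such bulk samples less RNA per cell and fewer cells of a type cannot be told apart.

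The patterns of the 4 genes over the 9 progenitor arrays were compared as a description. Snord14e correlated with Snord38a at Pearson r = 0.92 and with Snord15a at 0.91, Snord38a with Snord15a at 0.88, and Snord118 with these 3 at 0.60, 0.73 and 0.73. All share the arrays and the stages, so a common rise over stages enters each value. The most alike of 11388 probe sets, apart from predicted genes, were Snord49b (0.98), Snord15b (0.98) and Tlnrd1 (0.98) for Snord15a, Popdc2 (0.99), Cd99l2 (0.99) and Clcn2 (0.98) for Snord118, Sf3b2, Klhdc8b and Itfg2 (0.97 each) for Snord38a, and Itfg2 (0.94), Drap1 (0.94) and Snord49b (0.93) for Snord14e. The correlation with the median of the other snoRNA probe sets was 0.87 for Snord38a, 0.84 for Snord14e, 0.74 for Snord15a and 0.68 for Snord118.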

How the data were processed

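The authors deposited 1 intensity for each probe set of each array. RMA is named in the submitters' processing notes, and the values are linear, as their range shows. Its version, the genome build and any filter were not given in the sources used here. Log2 was taken with no further scaling. Of 29674 probe sets, 21780 had 1 symbol in the platform annotation, 1618 had several and 6276 were not listed. Gene numbers matched the RefSeq table for 21689, and 0 symbols differed. Stages were compared over the 9 progenitor arrays and DC with progenitors over all 11, with genotype as a term, using limma 3.58.1 in R 4.3.3 (two-sided, Benjamini-Hochberg), on probe sets at or above the array median on at least 2 arrays; residual degrees of freedom were 4 and 5. The fits were run on simulated data with independent noise and no genotype or sex-linked effect. The pass mark was only that mean estimates met the differences put in. That check does not cover the calls on the real arrays. Genotype differences were not tested, since they chose the genes. The members, gene lists and alternatives (scaling, filter, weights, left-out arrays) were chosen with earlier results of these data known. Named genes were the members, their hosts and neighbours, Zbtb46 and the 3 most alike probe sets per member. Up to 8 called particle genes and the 2 largest snoRNA changes each way per comparison were named too. Fbl, Nop56, Tgs1, Exosc3, Zcchc7, Nolc1 and the snoRNAs beside the extremes in DC were named after their values were seen. So were the other snoRNAs named beside Snord14e and Snord15a in progenitors. Some genes of the lists are not reported here. The number of arrays limits the precision. No snoRNA sequence is printed because the tables used here hold none.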

Additional observations from a re-analysis of the deposited data

Results flagged for a closer look

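In each of these results KO minus WT had 1 sign in CD4+ DC and the opposite sign at all 3 progenitor stages; the difference between the cell classes was not tested. Snord15a was at -0.35 in DC and at 0.53, 0.18 and 0.67 from Pre MegE to CFU-E. Relative to the other snoRNA probe sets its DC value was -0.18. Snord15b was at -0.091 in DC and at 0.32, 0.17 and 0.40. The median of the other snoRNA probe sets on an array was at -0.18 in DC and at 0.06, 0.12 and 0.13. Of the Hspa8 probe sets, 2 were at 0.11 and 0.20 in DC, where the first ran from -0.08 to -0.0085 over the stages and the other lay at -0.05 at each.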

How the results depend on the processing

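No paired analysis was possible because the labels give no replicate numbers; the stage and DC fits already compare within genotype. Of 347 alternatives for the 16 member tests 302 kept direction and call, 19 lost the call, 5 gained one and 21 changed sign. The rises of Snord118 and Snord15a from Pre CFU-E to CFU-E were called under every alternative run. Snord38a has no value under the stricter filter. The cause of the changes below was not tested.

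Centring turned the Snord118 difference between DC and progenitors to -0.44 (uncalled), array weights to -0.49 (uncalled) and quantile normalization to -0.16 (uncalled). Quantile normalization also gave Snord14e 0.12 from Pre MegE to Pre CFU-E (uncalled) and 0.15 in DC, and Snord15a 0.53 in DC. Relative to the median of the other snoRNA probe sets, the early step was -0.31 for Snord118 and -0.26 for Snord15a, both called lower. It was 0.25 for Snord38a (call lost) and -0.14 for Snord14e. The later step was 0.045 for Snord14e, and the span 0.12 for Snord15a (call lost) and -0.096 for Snord14e. On that scale DC minus progenitors was 0.65 for Snord118, -0.15 for Snord38a, 0.99 for Snord15a and 0.68 for Snord14e. KO minus WT in DC was -1.07 for Snord118, 1.52 for Snord14e, -0.18 for Snord15a and -0.0011 for Snord38a, KO minus WT over the stages 0.21 for Snord14e, and Het minus WT 0.20 for Snord15a and 0.027 for Snord14e. Against Pre MegE alone, DC differed by 0.13 for Snord118, 0.070 for Snord15a and -0.27 for Snord14e. Snord118 differed by 0.079 against Pre CFU-E alone and Snord15a by -0.54 against CFU-E alone.

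With each array or genotype left out in turn, DC minus progenitors ran from -1.06 to 0.060 for Snord118, -0.57 to 0.24 for Snord15a and -0.99 to 0.038 for Snord14e. The Snord118 call was also lost without the WT Pre MegE (limma adjusted p = 0.0713), Het Pre CFU-E (0.0519), KO Pre MegE (0.0812), KO Pre CFU-E (0.0760) or KO CFU-E array (0.0871). The early step ran from -0.13 to 0.19 for Snord118 and 0.0038 to 0.21 for Snord15a, and the later step from 0.16 to 0.20 for Snord14e, uncalled without the WT, Het or KO arrays. The number of probe sets called at the later step ran from 3303, without WT, to 5391. With 1 array per group, no genotype difference has a replicate check, and Snord38a in DC and the early stages is limited by its low signal.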
